A study of Mus musculus with 4 samples.

Results

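The MHC class I pathway genes described here are 10 genes of the antigen presentation machinery, out of 32285 genes in the deposited tables. They were chosen by name, with earlier results of these data known, and the rule uses no measured value: the heavy chain genes H2-K1, H2-D1 and H2-Q7, the light chain gene B2m, the peptide loading genes Tap1, Tap2 and Tapbp, the immunoproteasome genes Psmb8 and Psmb9, and the regulator Nlrc5. Their UMIs (unique molecular identifiers, 1 for each captured RNA molecule) were counted in Visium spots, small barcoded patches of a glass slide that each take up polyadenylated RNA from a piece of tissue holding several cells. The tissue was mouse brain cortex, snap frozen and sectioned, in 8 slices from 8 mice on 4 capture areas of 2 slices each. Injury was photothrombotic, that is, illumination of cortex after injection of the dye Rose Bengal, and times are days post-injury (dpi). One wild-type slice was uninjured (rest) and one was wild-type at 2 dpi, both on the same area. The labels do not say which of these pieces is which, and the rule used here takes the piece of 1017 spots as rest and the piece of 1726 spots as 2 dpi. A further 2 wild-type slices were taken at 7 dpi and 2 at 21 dpi. The last 2 slices, also at 21 dpi, came from Cthrc1(creER); R26(DTA) mice, in which Cthrc1-expressing cells are meant to express diphtheria toxin; the study set them aside because no deletion could be detected, and they are called deleter slices. The study's methods give mice of both sexes aged 7 to 21 weeks unless stated otherwise, and no age for single slices.

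MHC class I molecules display peptides from inside the cell to CD8+ T cells. The proteasome cuts proteins into peptides, and in immune cells and under interferon its catalytic subunits are exchanged for the immunoproteasome subunits that Psmb8 and Psmb9 encode. The transporter made of TAP1 and TAP2 carries the peptides into the endoplasmic reticulum, where tapasin (Tapbp) helps to load them on a heavy chain paired with β2-microglobulin. Transcription of most of these genes is driven by NLRC5 and by interferon and NF-κB signals at their promoters, and neurons and other parenchymal cells of the healthy brain are known for low class I levels.

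Of the 10 genes, 8 lie on chromosome 17, B2m on chromosome 2 and Nlrc5 on chromosome 8. In GENCODE M21 on GRCm38 (mm10), Psmb9 runs from 34181987 to 34187764 on the minus strand, Tap1 from 34187553 to 34197225, Psmb8 from 34197721 to 34201454 and Tap2 from 34203527 to 34216321, the last 3 on the plus strand. The Tap1 and Psmb9 gene models thus start head to head, and their promoter windows (from 250 bases before the start site) shared 275 of 300 bases, chromosome 17 from 34187306 to 34187580. RefSeq promoters of the same assembly (GRCm38.p6) were matched for 8 of the 10 genes and not for Tap2 and Nlrc5. H2-K1 had 2 overlapping promoter windows and is counted once below. The RefSeq windows of Tapbp and Psmb8 lie inside the GENCODE models of these genes. A stretch of 120 bases is shown for the 4 genes that form the class I molecule itself, because they encode the chains whose levels are described first below. Each heavy chain stretch was cut to begin shortly before its NF-κB site, and that of B2m shortly before its interferon element. A further CCAAT box of each heavy chain promoter lay past the end of its stretch. Capitals mark, on either strand, an NF-κB site (GGGGATTCC), an interferon element (GAAANNGAA or GAANNGAAA) and a CCAAT box, none of which overlap in these stretches.
H2-K1, minus strand of chr17:34000349-34000468: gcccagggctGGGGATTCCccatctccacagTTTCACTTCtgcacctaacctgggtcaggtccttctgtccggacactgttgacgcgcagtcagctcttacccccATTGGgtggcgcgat
H2-D1, plus strand of chr17:35262913-35263032: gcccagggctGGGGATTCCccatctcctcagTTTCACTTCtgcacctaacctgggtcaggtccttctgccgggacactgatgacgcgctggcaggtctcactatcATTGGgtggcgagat
H2-Q7, plus strand of chr17:35439012-35439131: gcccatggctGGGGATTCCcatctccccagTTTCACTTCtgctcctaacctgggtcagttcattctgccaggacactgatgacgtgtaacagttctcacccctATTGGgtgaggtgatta
B2m, plus strand of chr2:122147538-122147657: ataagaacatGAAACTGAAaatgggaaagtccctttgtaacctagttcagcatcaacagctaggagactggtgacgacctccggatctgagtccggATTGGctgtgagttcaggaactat

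The 3 heavy chain stretches held the same marked elements in the same order, with the place of the NF-κB site fixed by the cut. In pairwise alignments of these stretches, 108 of 120 bases were identical between H2-K1 and H2-D1, 101 between H2-K1 and H2-Q7 and 101 between H2-D1 and H2-Q7. The NF-κB letters were present in the promoters of 3 of the 8 matched genes and in 0.25% of 32851 mouse promoters of the same length. The interferon letters were present in 4 of the 8 and in 14.8% of all, and the CCAAT box in 7 of the 8 and in 37.4% of all. A further motif searched, GAS (TTCNNNGAA), was present in 1 of the 8, Psmb8, and in 8.3% of all. The heavy chain promoters resemble each other, and those of Tap1 and Psmb9 share most of their bases. The counts over the 8 genes are therefore not counts of independent promoters, and no enrichment is read from them. Such matches are descriptions of the letters, not binding sites. Because the heavy chains are similar, the last 500 bases of each transcript were searched for 50-base windows that also occur in other genes. This held for 0.44% of windows of H2-K1, 9.53% of H2-D1 and 6.21% of H2-Q7, and for none of the other 7 genes. The windows of H2-K1 were found in H2-D1, and those of H2-Q7 in H2-Q5 and H2-Q10. The genes that shared most windows with H2-D1 were AC132307.5, Adsl, Kcnk4, Nmrk1, Paip2b and Prr11, with no H2 gene among them. Reads of H2-Q7 from such windows cannot be told apart from those of its neighbours.

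Spots with at least 5 Col1a1 UMIs per 10000, which mark collagen-producing fibrotic or meningeal tissue, were taken as distance 0 (Col1a1-rich). All other spots were placed by the number of spots to the nearest of them, as a ring (1 to 2 spots), a middle zone (3 to 5 spots) and far tissue (6 or more spots). Slices held 827 to 1726 spots and 11332780 to 23677298 UMIs, and the median spot held 12447 to 16158 UMIs, except at 2 dpi, where it held 2633.5. Col1a1-rich spots numbered 3 at rest, 26 at 2 dpi (of which 17 rest on 1 Col1a1 UMI), 112 and 392 at 7 dpi, 170 and 203 at 21 dpi, and 193 and 274 in the deleter slices. Levels below are UMIs per 10000 UMIs of all genes in the same spots, which is not adjusted for transcript length, so genes are compared with themselves and not with each other. Fewer cells of a type and less RNA per cell cannot be told apart in such spots. Xist was abundant in all 4 slices up to 7 dpi and in deleter slice 1, and Y-linked genes in both wild-type slices at 21 dpi and in deleter slice 2, so that time, capture area and sex-linked genes coincide between 7 and 21 dpi and their parts cannot be told apart.

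At rest the class I genes were low over the slice as a whole. The 3 Col1a1-rich spots of this slice held 22228 UMIs of all genes and are not described separately, so 'low' does not cover them. Their summed level was 2.80 UMIs per 10000 (exact 95% Poisson interval 2.72 to 2.88, from 4578 UMIs), and B2m made up 65.6% of it. B2m stood at 1.84, H2-D1 at 0.363, H2-K1 at 0.308 and Tapbp at 0.142. Each of the other 6 genes was under 0.06, and Nlrc5 was seen as 3 UMIs in 16355749. Spots at the edge of the tissue piece held 4.09 per 10000 against 2.66 in the interior. All intervals cover counting error only, since the slices at rest and at 2 dpi are 1 each and allow no test between them.

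In the slice at 2 dpi the sum was 5.89 (interval 5.76 to 6.03, from 7714 UMIs), and the intervals of all 10 genes except H2-Q7 lay above those at rest. Psmb8 had 0.326 (0.296 to 0.359) against 0.0538 (0.0432 to 0.0663) at rest, 6.06-fold higher, and Tap1 was 4.50-fold higher. H2-K1 and H2-D1 were 2.37-fold and 2.36-fold higher, and B2m 1.81-fold. Nlrc5 was seen as 29 UMIs. H2-Q7 had 0.0321 (0.0231 to 0.0434) against 0.0171 (0.0114 to 0.0247), intervals that overlap. In this slice 21.7% of spots held under 1000 UMIs, so spots of like depth were also compared. In spots of at least 5000 UMIs the sum was 5.75 (5.61 to 5.89) against 2.77 (2.69 to 2.86) at rest, and in shallower spots it was 6.98 (6.57 to 7.41) against 6.28 (4.93 to 7.88), intervals that overlap. The interferon-stimulated genes, a list of 10 such as Ifit3 and Irf7, stood at 2.29 against 0.352 at rest, and 7 phagocyte markers at 3.73 against 0.722; their part in the class I values was not tested.

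**Figure D1:**
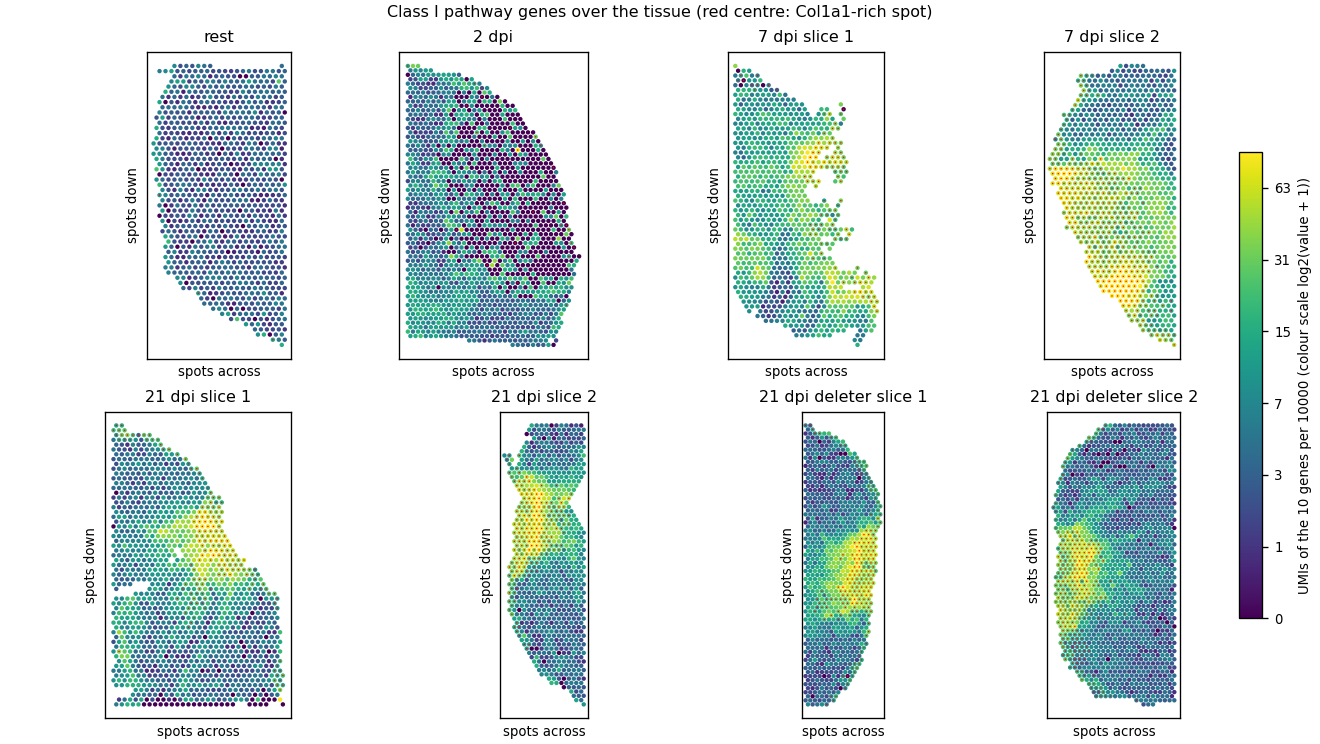
Each panel is 1 slice drawn to the same layout of spots; colour gives the UMIs of the 10 class I genes per 10000 UMIs on a log2(value + 1) colour scale, and a red centre marks a Col1a1-rich spot. Every slice at 7 and 21 dpi has 1 or more yellow patches of high level, while the slice at rest is dark over most of its area, and many low-depth spots at 2 dpi held no UMI of these genes.

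From 7 dpi on, the sum over the whole slice was several times that at rest. It was 20.05 and 27.4 at 7 dpi, 14.9 and 18.5 at 21 dpi, and 18.9 and 10.4 for the deleter genotype. Every injured slice from 7 dpi on was thus above both earlier slices, by 3.72-fold to 9.79-fold over rest, and the slices at 7 dpi were above all 4 later ones. The order of single genes was not always that of the sum. H2-D1 in 7 dpi slice 1 (2.77) was below both wild-type slices at 21 dpi (3.31 and 4.16), and Tap2 (0.139 and 0.167 at 7 dpi, 0.126 and 0.156 at 21 dpi) overlapped between these times. The share of Col1a1-rich spots also differed between slices. It was 11.5% and 41.4% at 7 dpi, 12.7% and 24.5% at 21 dpi, and 21.2% and 17.2% in the deleter slices. Its part in the whole-slice levels was not tested.

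In the 6 slices from 7 dpi on, the level was highest at distance 0 and lower at 6 spots than at 1. At distance 0 the sum was 46.5 and 52.7 at 7 dpi, 45.6 and 45.4 at 21 dpi, and 44.5 and 34.9 in the deleter slices. At a distance of 1 spot it was 37.9 and 23.7, 24.4 and 26.1, and 29.0 and 17.7, and at 6 spots it was 12.6 and 11.5, 8.58 and 5.28, and 5.40 and 4.80. At 3 spots, the slices at 7 dpi kept 61.5% and 39.7% of their level at distance 0. The wild-type pair at 21 dpi kept 24.3% and 18.4% there, and the deleter pair 27.2% and 18.2%. This difference in shape was not tested. In 7 dpi slice 1 the level did not fall steadily: it was 39.5 at 2 spots, reached its lowest value of 10.9 at 8 spots, stood at 17.4 at 11 spots and was 14.0 at 12 spots or more, whereas the other 5 slices were between 2.82 and 5.99 there. At 2 dpi the profile was shallow, from 9.59 at distance 0 (54 UMIs in 26 spots) to 4.11 at 6 spots, and stood at 7.69 at 12 spots or more.

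**Figure D2:**
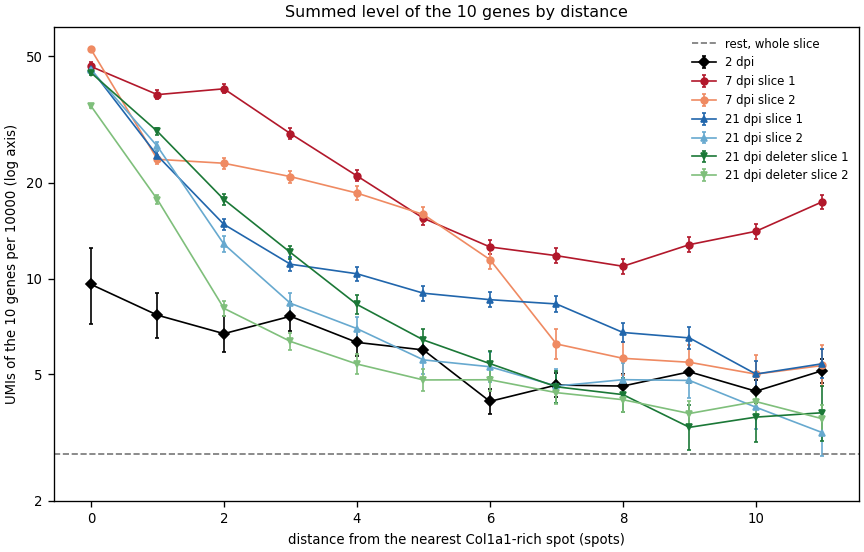
Summed UMIs of the 10 genes per 10000 (log axis) against distance from the nearest Col1a1-rich spot up to 11 spots, for 7 slices with exact 95% Poisson intervals as bars; the dashed line is the whole slice at rest, 2.80. All 6 slices at 7 and 21 dpi start between 34.9 and 52.7 and are lower at 6 spots, and 7 dpi slice 1 is highest from 1 spot on except at 5 spots, where slice 2 is slightly higher.

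Col1a1-rich spots lay both inside the tissue and at its edge, and from 7 dpi on the class I level of this zone was lower at the edge. Within the Col1a1-rich zone, spots at the tissue edge had a sum of 42.1 and 49.5 at 7 dpi, 31.6 and 33.4 at 21 dpi, and 27.2 and 21.7 in the deleter slices. Spots with tissue on all sides had 52.6 and 53.5, 49.7 and 47.3, and 49.9 and 37.9. The edge was lower in 6 of 6 slices, and the exact Poisson intervals of edge and interior did not overlap in any of them. These intervals do not cover variation between spots, and the difference was not tested. At 2 dpi the same zones had 10.8 (7.80 to 14.5) and 6.71 (3.35 to 12.0), intervals that overlap.

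The fitted difference between Col1a1-rich and far tissue was tested within slices, with the slice as a block, for each group. All 10 genes were higher in Col1a1-rich tissue at 7 dpi, at 21 dpi and in the deleter slices (edgeR quasi-likelihood test with Benjamini-Hochberg adjustment over all genes). Much else was also higher there: 25.9% of 14645 genes tested at 7 dpi, 28.3% at 21 dpi and 29.2% in the deleter slices. The median log2 fold change of the 10 genes was 2.43 at 7 dpi, 3.14 at 21 dpi and 3.28 in the deleter slices, beside medians of -0.04, -0.03 and 0.01 over all genes tested. There were 2 slices a group and 4 zone sums from each slice. A single fit over all 6 slices, deleter slices included, gave a shared estimate of the spread. The errors of a group therefore do not measure how alike its own 2 slices are. Each of the 10 genes had its lowest Col1a1-rich value, over all 6 slices, above its highest far value.

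The light chain B2m, which pairs with every class I heavy chain, carried the most UMIs. In Col1a1-rich tissue it stood at 24.6 and 26.6 per 10000 at 7 dpi, 21.8 and 22.6 at 21 dpi, and 21.0 and 16.4 in the deleter slices. Far from it B2m stood at 7.68 and 3.80, 3.77 and 2.44, and 2.53 and 2.25. The zones did not overlap between slices, with a log2 fold change of 2.31 ± 0.25 (SE; edgeR adjusted p = 3.8e-06) at 7 dpi, 2.89 ± 0.26 (edgeR adjusted p = 3.0e-07) at 21 dpi and 2.92 ± 0.26 (edgeR adjusted p = 2.8e-07) in the deleter slices.

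Among the heavy chains, H2-K1 showed the largest fitted difference at 7 dpi. Its Col1a1-rich level was 10.0 and 9.74 at 7 dpi, 7.81 and 7.54 at 21 dpi, and 7.93 and 5.82 in the deleter slices, against far levels of 2.22 and 0.836, 0.931 and 0.458, and 0.517 and 0.466. The log2 fold change was 2.90 ± 0.33 (edgeR adjusted p = 5.1e-06) at 7 dpi and 3.55 ± 0.34 (edgeR adjusted p = 5.7e-07) at 21 dpi. At 7 dpi it was 2.26 without slice 2 and 3.62 without slice 1. H2-D1, the second classical heavy chain, did not follow the same order of slices. It was lowest in Col1a1-rich tissue of 7 dpi slice 1, at 6.59, and stood at 10.3 in 7 dpi slice 2, 10.8 and 10.1 at 21 dpi, and 10.1 and 8.11 in the deleter slices. Its log2 fold change over far tissue was 2.44 ± 0.23 at 7 dpi and 3.20 ± 0.24 at 21 dpi.

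The balance of these heavy chains set 7 dpi slice 1 apart from the other slices in every zone. There, H2-K1 had 1.52 UMIs for each UMI of H2-D1 in Col1a1-rich spots, 1.38 in the ring, 1.25 in the middle zone and 1.18 far away. In the other 5 slices from 7 dpi on, the ratio was between 0.718 and 0.949 in Col1a1-rich spots and between 0.470 and 0.685 in far spots, and over the whole slice it was 0.848 at rest and 0.852 at 2 dpi. B2m against both heavy chains together shifted with place in all 6 slices: 1.17 to 1.48 UMIs of B2m for each heavy chain UMI in Col1a1-rich spots, 1.65 to 1.97 in far spots, and 2.74 at rest.

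H2-Q7 encodes a non-classical heavy chain known as Qa-2 and gave few UMIs. Its Col1a1-rich level was 0.614 and 0.653 at 7 dpi, 0.367 and 0.319 at 21 dpi, and 0.475 and 0.251 in the deleter slices, and far levels were between 0.0114 and 0.173. The log2 fold change was 2.83 ± 0.38 at 7 dpi, 3.09 ± 0.43 at 21 dpi and 3.73 ± 0.44 in the deleter slices, the last against far sums of 4 and 34 UMIs. These values rest on single slices: at 7 dpi the log2 fold change was 1.91 without slice 2 and 4.20 without slice 1, at 21 dpi 3.82 without slice 1, and for the deleter genotype 5.31 without slice 2.

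**Figure D3:**
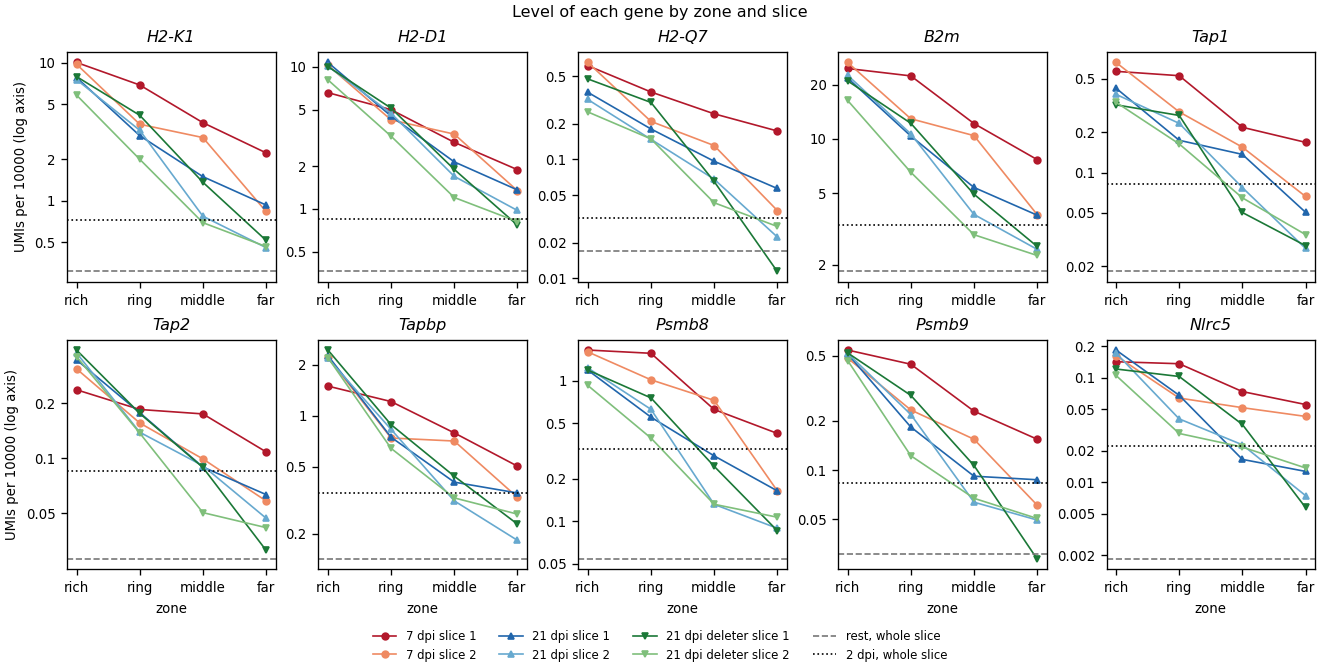
Level of each gene in UMIs per 10000 (log axes) in Col1a1-rich, ring, middle and far spots of the 6 slices at 7 and 21 dpi; dashed and dotted lines are the whole slices at rest and at 2 dpi. For each of the 10 genes all 6 slices descend from Col1a1-rich to far, with H2-D1, Tap2 and Tapbp of 7 dpi slice 1 starting lowest and ending highest.

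The peptide transporter genes rose together towards Col1a1-rich tissue, with a different order of slices for Tap1 and Tap2. Tap1 stood at 0.567 and 0.660 in Col1a1-rich tissue at 7 dpi, 0.425 and 0.382 at 21 dpi, and 0.319 and 0.333 in the deleter slices. Tap2 stood at 0.236 and 0.307, 0.344 and 0.375, and 0.389 and 0.358. Neither gene passed the test between times given below. Over whole slices the ratio of Tap1 to Tap2 UMIs was 0.652 at rest, 0.964 at 2 dpi, 1.76 and 1.92 at 7 dpi, 1.12 and 1.07 at 21 dpi, and 0.995 and 0.988 in the deleter slices, so that the slices at 7 dpi lay above all others, with no test made of the ratio. Against far tissue, the log2 fold change at 7 dpi was 2.58 ± 0.33 for Tap1 and 1.89 ± 0.28 for Tap2, and at 21 dpi it was 3.34 ± 0.37 and 2.71 ± 0.28. With 1 slice left out at 7 dpi, Tap1 ran from 1.84 without slice 2 to 3.38 without slice 1, and Tap2 from 1.21 to 2.46.

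Tapbp, the loading chaperone tapasin, resembled Tap2. It stood at 1.50 and 2.22 in Col1a1-rich tissue at 7 dpi, 2.27 and 2.19 at 21 dpi, and 2.45 and 2.21 in the deleter slices, and between 0.183 and 0.504 far away. The lowest Col1a1-rich value and the highest far value both belonged to 7 dpi slice 1. The log2 fold change was 2.29 ± 0.27 (edgeR adjusted p = 8.2e-06) at 7 dpi, 3.09 ± 0.28 (edgeR adjusted p = 3.4e-07) at 21 dpi and 3.18 ± 0.28 (edgeR adjusted p = 2.5e-07) in the deleter slices. Without 7 dpi slice 2 the value at 7 dpi was 1.66.

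Psmb8 and Psmb9 encode immunoproteasome subunits that replace the constitutive subunits encoded by Psmb5 and Psmb6. Psmb8 stood at 1.65 and 1.60 in Col1a1-rich tissue at 7 dpi, 1.19 and 1.23 at 21 dpi, and 1.19 and 0.926 in the deleter slices. Psmb9 was nearly level, at 0.543 and 0.485, 0.514 and 0.519, and 0.522 and 0.468. Their log2 fold changes over far tissue were 2.58 ± 0.34 and 2.42 ± 0.33 at 7 dpi and 3.27 ± 0.36 and 2.90 ± 0.34 at 21 dpi. Without 7 dpi slice 1 the values at 7 dpi were 3.36 and 3.06.

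Set against its constitutive partner, Psmb8 was scarce at rest and higher in every injured slice. Over the whole slice, the ratio of Psmb8 to Psmb5 UMIs was 0.020 at rest, 0.138 at 2 dpi, 0.315 and 0.422 at 7 dpi, 0.171 and 0.239 at 21 dpi, and 0.281 and 0.132 in the deleter slices. In Col1a1-rich spots it was 1.09 and 0.875 at 7 dpi, 0.776 and 0.795 at 21 dpi, and 0.759 and 0.659 in the deleter slices, while the 3 such spots at rest held only 1 UMI of Psmb8. In far spots it was 0.175 in 7 dpi slice 1 and between 0.0368 and 0.0666 in the other 5 slices, all above rest. Psmb5 itself was lower in Col1a1-rich than in far tissue, with a log2 fold change of -0.50 at 7 dpi and -0.64 at 21 dpi, past the threshold in both.

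In Col1a1-rich spots the ratio of Psmb9 to Psmb6 UMIs had the opposite order of times. It was 0.178 and 0.164 there at 7 dpi, 0.238 and 0.232 at 21 dpi, and 0.270 and 0.226 in the deleter slices. Over the whole slice it was 0.014 at rest and 0.0341 at 2 dpi. The later times overlapped over the whole slice, with 0.0931 to 0.0946 at 7 dpi and 0.0746 to 0.0982 at 21 dpi. Psmb10, which encodes the last immunoproteasome subunit, was already at 0.362 UMIs for each UMI of Psmb7 at rest and 0.354 at 2 dpi. It reached 0.573 and 0.659 in Col1a1-rich spots at 7 dpi, 0.749 and 0.833 at 21 dpi, and 0.826 and 0.815 in the deleter slices. These ratios compare transcripts with different 3′ ends and do not give numbers of proteins.

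**Figure D4:**
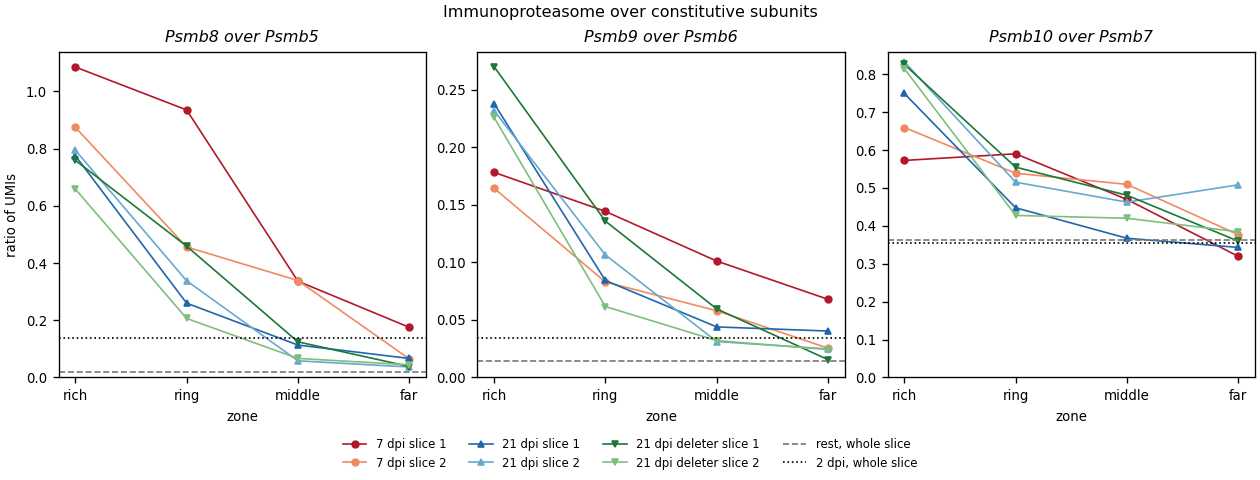
Ratio of UMIs of each immunoproteasome subunit gene to its constitutive counterpart (linear axes from 0) by zone in the 6 slices at 7 and 21 dpi, with the whole slices at rest and at 2 dpi as dashed and dotted lines. Psmb8 over Psmb5 reaches 0.659 to 1.09 in Col1a1-rich spots from 0.020 at rest, Psmb9 over Psmb6 0.164 to 0.270, and Psmb10 over Psmb7 starts from 0.362 at rest.

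Nlrc5, the class I transactivator, was the sparsest of the 10 genes, with 66 to 118 UMIs in each of the 6 slices. Its Col1a1-rich level was 0.142 and 0.162 at 7 dpi, 0.183 and 0.172 at 21 dpi, and 0.121 and 0.105 in the deleter slices. In far tissue it was 0.0552 and 0.0425 at 7 dpi (50 and 16 UMIs) but 0.0127 and 0.00742 at 21 dpi (10 and 3 UMIs), and 0.00571 and 0.0137 in the deleter slices (2 and 17 UMIs). The log2 fold change was 1.83 ± 0.42 (edgeR adjusted p = 0.0021) at 7 dpi, 4.09 ± 0.49 (edgeR adjusted p = 5.0e-06) at 21 dpi and 3.12 ± 0.48 (edgeR adjusted p = 4.7e-05) in the deleter slices. Without deleter slice 2 the deleter value was 4.30, on a far sum of 2 UMIs. Without 7 dpi slice 2, Nlrc5 at 7 dpi no longer passed the threshold, and the other 9 genes did.

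The tissue next to Col1a1-rich spots was also above far tissue. In the ring, 9 of the 10 genes were higher than in far spots at 7 dpi and 10 of 10 at 21 dpi, where 16.6% and 10.9% of 14645 genes tested were higher and 12.7% and 7.4% lower. The ring also held more fibroblast and phagocyte RNA than far spots. Of 4 fibroblast markers, 3 were higher at 7 dpi and 4 at 21 dpi, and of 7 phagocyte markers 6 and 7, with 0 lower in either list. Their part in the class I values of the ring was not tested. At 7 dpi, Psmb8 had the largest log2 fold change, 2.16 ± 0.33 (edgeR adjusted p = 0.00025), with ring levels of 1.57 and 1.01, and H2-K1 had 1.86 ± 0.31 with ring levels of 6.89 and 3.58. Nlrc5 missed the threshold at 7 dpi, with 1.02 ± 0.44 (edgeR adjusted p = 0.092). At 21 dpi the log2 fold changes ran from 1.47 for Psmb9 and Tap2 to 2.33 ± 0.56 for Nlrc5, and B2m had 1.76 ± 0.25 with ring levels of 10.4 and 10.7. The counts depended on single slices: 3 of 10 genes passed at 21 dpi without slice 2 and 8 without slice 1, and 7 of 10 passed at 7 dpi without slice 2. The value of Psmb9 at 21 dpi was 2.10 without slice 1.

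**Figure D5:**
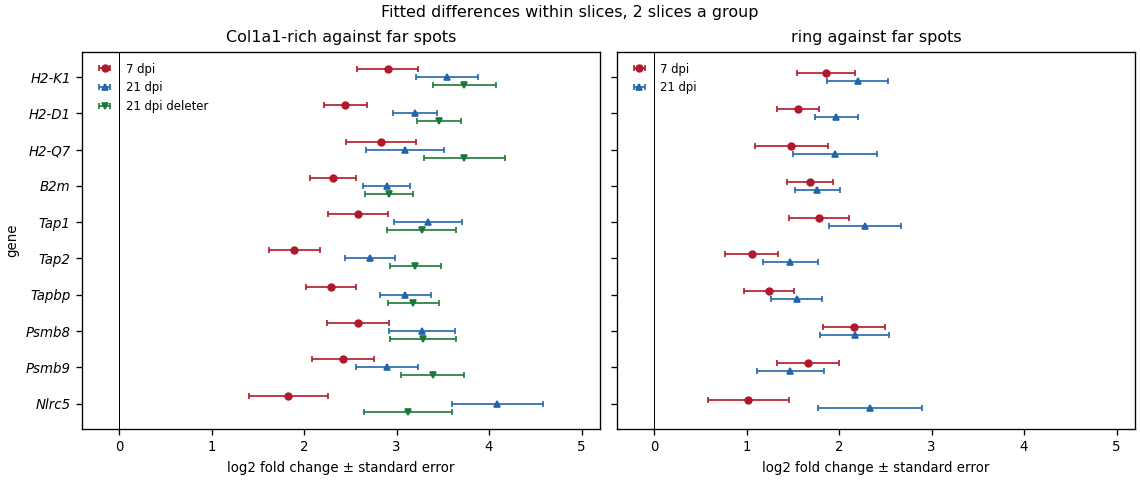
Fitted log2 fold changes with standard errors of the 10 genes, Col1a1-rich against far spots (left) and ring against far spots (right), within 2 slices a group. All values lie to the right of 0, from 1.83 to 4.09 on the left and from 1.02 to 2.33 on the right, and those at 21 dpi lie to the right of those at 7 dpi for all 10 genes on the left and for 9 on the right, Psmb9 being the exception.

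Whether the step from far to Col1a1-rich tissue differed between 7 and 21 dpi was tested directly. The fitted difference was negative for all 10 genes, that is, a smaller step at 7 dpi, and none passed the adjusted threshold, where 0.266% of 14645 genes did. It was -2.26 ± 0.67 for Nlrc5 (edgeR adjusted p = 0.18) and -0.76 ± 0.31 for H2-D1 (edgeR adjusted p = 0.36), the 2 genes with an unadjusted p under 0.05, beside 12.3% of all genes. For the other 8 it lay between -0.82 and -0.26. Without 7 dpi slice 1, whose far tissue was high, the sign turned for H2-K1, H2-Q7, Tap1, Psmb8 and Psmb9. The depth of Col1a1-rich against far spots also differed between 7 and 21 dpi, and its part in the step was not tested.

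Between times at the same place, 0 of the 10 genes passed the threshold in Col1a1-rich tissue, where 4.39% of 13289 genes did. The genes divided by sign, with 5 above and 5 below 0. Tap1 had a log2 difference (7 over 21 dpi) of 0.66 ± 0.17 (edgeR adjusted p = 0.051), H2-Q7 0.92 ± 0.26 (edgeR adjusted p = 0.080), Psmb8 0.45 ± 0.16 (edgeR adjusted p = 0.15) and H2-K1 0.39 ± 0.16 (edgeR adjusted p = 0.21). Tap2, H2-D1, Tapbp, Nlrc5 and Psmb9 had differences between -0.31 and -0.01. With the deleter slices counted with the wild-type slices at 21 dpi, a choice made after seeing the data, Tap1 at 0.80 ± 0.16 (edgeR adjusted p = 0.0099), H2-Q7 at 0.89 ± 0.21 (edgeR adjusted p = 0.029) and Psmb8 at 0.54 ± 0.14 (edgeR adjusted p = 0.036) passed, where 4.0% of genes were higher at 7 dpi. The interferon-stimulated genes stood at 17.0 and 17.4 in Col1a1-rich tissue at 7 dpi, 6.01 to 6.90 at 21 dpi and 3.09 to 4.43 in the deleter slices, and 4 of these 10 genes were higher and 1 lower at 7 dpi; their part in the class I values was not tested.

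In far tissue all 10 genes had a higher fitted level at 7 than at 21 dpi, with log2 differences from 0.45 for H2-D1 to 2.19 ± 0.54 for Nlrc5, but none passed the threshold (lowest edgeR adjusted p = 0.86). At an unadjusted p under 0.05 there were 4, B2m, Tap1, Psmb8 and Nlrc5, beside 5.55% of 14142 genes, and 0.0% of genes passed the adjusted threshold (DESeq2 called 6 higher and 13 lower, none of the 10). The slices overlapped: the sum was 13.4 and 6.74 in far tissue at 7 dpi and 6.85 and 4.30 at 21 dpi, so 7 dpi slice 2 lay just under 21 dpi slice 1. In 7 dpi slice 1, far tissue also had the highest levels of interferon-stimulated genes, 5.18 against 0.346 to 1.64 in the other 5 slices, and of phagocyte markers, 6.37 against 2.23 to 4.02, whose part in the class I values was not tested.

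At 7 dpi, 21 dpi and in the deleter slices, 25.6%, 29.0% and 28.1% of all genes tested were lower in Col1a1-rich than in far tissue, beside the 25.9%, 28.3% and 29.2% that were higher. Of 47 further genes of the class I pathway, its regulators and its receptors, 46 are in the files and 39 passed the filter on low counts. In Col1a1-rich against far tissue 28 were higher and 2 lower at 7 dpi, 30 and 3 at 21 dpi, and 31 and 4 in the deleter slices, with median log2 fold changes of 1.58, 1.74 and 1.63. Lower in all 3 groups were Psmb5 and Psmb7, constitutive proteasome subunits. Psme3, a proteasome activator gene outside the interferon-induced pair, was lower at 21 dpi (-0.37) and in the deleter slices (-0.48). Rfxap, a subunit of the RFX complex that binds class I and class II promoters, passed as lower in the deleter slices (-0.52), with -0.32 at 7 dpi and -0.37 at 21 dpi.

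Among those higher in all 3 groups were the interferon-induced proteasome activators Psme1 (log2 fold change 1.50 at 7 dpi and 1.51 at 21 dpi) and Psme2 (1.63 and 1.70), the peptide trimming enzyme Erap1 (2.10 and 2.39), and the loading chaperones Calr (1.05 and 1.00) and Pdia3 (1.45 and 1.49). The regulators Irf1 (1.96 and 2.63) and Irf8 (2.37 and 3.21) were also among those higher in all 3. Irf2 (0.43 and 0.91) and the chaperone Canx (0.28 and 0.33) passed at 21 dpi and neither at 7 dpi nor in the deleter slices. The further heavy chain genes H2-T23 (2.10 and 2.24), H2-T22 (1.82 and 1.55) and H2-M3 (2.22 and 2.38) and the related Fcgrt (2.44 and 3.12), which encodes the neonatal Fc receptor heavy chain, were higher in all 3, as was the inhibitory class I receptor Pirb (4.46 and 5.17).

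In the ring, 23 of these genes were higher and 1 lower at 7 dpi, and 17 and 1 at 21 dpi, beside 16.6% of all genes higher and 12.7% lower at 7 dpi and 10.9% and 7.4% at 21 dpi, Psmb5 being the lower one at both times. In Col1a1-rich tissue between times, 2 of 37 tested were lower at 7 dpi and none higher: Fcgrt at -0.77 and Ifngr1, a chain of the interferon-γ receptor, at -0.70, beside 2.5% of all genes. Neither the difference in step nor far tissue gave a call, over 39 and 34 of them. Ifng, the gene of interferon-γ itself, was counted at 0 to 2 UMIs in each slice, and Cd8b1, a chain of the CD8 coreceptor that binds class I, at 2 at rest, 1 at 2 dpi, 2 and 6 at 7 dpi, 19 and 14 at 21 dpi, and 22 and 15 in the deleter slices. Of the 7 T cell markers, Cd3e was at 0 UMIs at rest and in both slices at 7 dpi, and the summed list stood at 0.0943 and 0.157 in Col1a1-rich tissue at 7 dpi, 0.469 and 0.445 at 21 dpi, and 0.751 and 0.449 in the deleter slices. At rest the summed list stood at 0.486 over the whole slice although Cd3e was at 0, so the sum did not follow the class I genes there. The markers of this list did not move together. Of 6 tested, 1 was lower in Col1a1-rich than in far tissue at 7 dpi, at 21 dpi and in the deleter slices. The parts of single markers in the sum are not given here, so it is not read as an amount of T cells.

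Markers of several cell types moved with the class I genes between far and Col1a1-rich tissue. Of all genes tested, 25.9%, 28.3% and 29.2% were higher in Col1a1-rich than in far tissue at 7 dpi, at 21 dpi and in the deleter slices, and 25.6%, 29.0% and 28.1% lower. All 7 phagocyte markers (such as Cd68 and Lyz2) were higher in Col1a1-rich than in far tissue in these 3 groups. The summed phagocyte level in Col1a1-rich spots was 55.5 and 71.7 at 7 dpi, 87.7 to 99.1 at 21 dpi and 75.9 to 83.3 in the deleter slices, against 2.23 to 6.37 in far spots and 0.722 at rest. No marker of this list was at 0 in any whole slice. The 5 class II genes were at 2.18 and 3.81 in Col1a1-rich tissue at 7 dpi and 10.3 to 13.9 in all 4 slices at 21 dpi. Of the 5, 4 were lower at 7 dpi, where 0 of the 10 class I genes and 2.5% of all genes were. All 4 fibroblast markers were higher in Col1a1-rich tissue in all 3 groups, which the choice of spots by Col1a1 favours and which is no independent result. Of 5 endothelial markers, 4 were higher at 7 dpi and 5 in the other groups, and all 4 neuron markers were lower in all 3. Of the 3 oligodendrocyte markers, 3 were lower at 7 dpi, 0 at 21 dpi and 1 in the deleter slices. All 5 microglia markers were higher at 7 and 21 dpi, and 4 of 5 in the deleter slices. Of 4 astrocyte markers, 0 were higher and 2 lower at 7 dpi, and 2 were higher and 1 lower in both other groups. Of 3 dendritic cell markers tested, 1 was higher and 1 lower at 7 dpi, 2 and 1 at 21 dpi, and 2 and 0 in the deleter slices. All 10 interferon-stimulated genes were higher in all 3 groups. Of 6 T cell markers tested, 0 were higher and 1 lower at 7 dpi, and 4 were higher and 1 lower both at 21 dpi and in the deleter slices. Of 3 B and plasma cell markers tested, 0 were higher at 7 dpi and 3 in both other groups. Only 1 of 5 markers of NK and cytotoxic cells was tested, with no call at 7 dpi and a higher level in both other groups. The part of any cell type in the class I values was not tested.

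Over 31 sums of a slice and zone with at least 20 spots, likeness to the summed class I genes was taken as Pearson correlation of log2(CPM + 1). It was computed for 7883 genes with a mean of at least 20 CPM. The 10 genes and all other genes named H2, class II included, were then left out of the ranking. Among the rest, the 5 most alike were Hexa (r = 0.983), Laptm5 (0.981), Ctsh (0.980), Ctss (0.979) and Npc2 (0.979). Among the 45 pairs of the 10 genes, r ran from 0.664 for Psmb8 with Psmb9 to 0.992 for H2-K1 with B2m, with a median of 0.881. These are descriptions: the sums share slices, libraries and tissue composition.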

How the data were processed

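The authors processed the Visium libraries with Space Ranger 2.0.0 against mm10 (submitters' processing notes) and deposited count matrices (UMIs of each gene in each spot, not normalized) with array positions. Spots over tissue were joined into connected pieces, 2 per capture area, each taken as 1 slice and 1 mouse. The assignment of rest and 2 dpi comes from the piece sizes given with the rule. Distances are the fewest steps between spots on the hexagonal array from the nearest spot with at least 5 Col1a1 UMIs per 10000.

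Counts were summed per slice and zone and tested with edgeR 4.0.16 in R 4.3.3 (quasi-likelihood test after TMM scaling and filterByExpr; p-values adjusted by Benjamini-Hochberg over all genes tested, threshold 0.05). Comparisons between zones used 6 slices of 4 zones with the slice as a block and zone effects per group. Comparisons between times used 1 sum per slice and the group alone. In both kinds of comparison the deleter slices added to the estimate of the spread, except where an alternative left them out. Standard errors are the log2 fold change over the square root of F. The study tested single spots, which was not repeated, since spots are not replicates. Levels carry exact 95% Poisson intervals. Slices held 11332780 to 23677298 UMIs. No doublet caller was run, since spots hold several cells, and 4 spots of 21 dpi slice 1 had no UMIs.

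The members, the list of further pathway genes and the markers were chosen with earlier results of these data known. All members are named. The further pathway genes named passed the threshold or enter a ratio, except Ifng and Cd8b1, which are named for their UMI counts. Not all further genes that passed are named. The 5 most alike genes follow the correlation, with the members and all H2 genes left out. Alternatives were DESeq2 1.42.0, no TMM, no filter on low counts, 2 and 10 Col1a1 UMIs per 10000, at least 2 Col1a1 UMIs in a spot, Col1a1-rich spots in groups of 5, spots of at least 1000 UMIs, far from 4 spots, wild-type slices only, and each slice left out. The fits were also run on simulated counts with known changes in a single zone of a single group. These counts held no differences between slices, so that run does not cover the spread between slices seen here. Positions are from GENCODE M21, promoters from RefSeq. Results that need certain withheld genes are not reported here.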

Additional observations from a re-analysis of the deposited data

How the results depend on the processing

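All 10 genes remained higher in Col1a1-rich than in far tissue under every alternative run at 7 dpi, at 21 dpi and in the deleter slices, except Nlrc5 at 7 dpi without slice 2, so 9 to 10, 10 to 10 and 10 to 10 genes passed with a slice left out. In the ring, 7 to 9 genes passed at 7 dpi and 3 to 8 at 21 dpi with a slice left out, and with 2 Col1a1 UMIs per 10000 these counts were 4 and 5. The same setting gave 4 calls, all negative, for the difference of the step between times, which had 0 to 0 with a slice left out. In Col1a1-rich tissue between times, 2 genes passed without the filter on low counts, 1 at 10 Col1a1 UMIs per 10000, 1 with wild-type slices only and 3 with the deleter slices added, and 0 to 0 with a slice left out. In far tissue 4 passed without the filter, and 0 to 0 with a slice left out. The shares of all genes that passed under these alternatives were not set beside the counts, so the counts are not read as particular to the 10 genes. The cause of these shifts was not tested.

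Differences that changed sign were all without a call. For the step between times, the log2 difference with a slice left out ran from -1.28 to 0.068 for H2-K1, -1.18 to 1.11 for H2-Q7, -1.50 to 0.043 for Tap1, -1.22 to 0.084 for Psmb8 and -1.0 to 0.16 for Psmb9, each highest without 7 dpi slice 1, and H2-Q7 became 0.16 at 10 Col1a1 UMIs per 10000, 0.16 in groups of 5 and 0.10 without 21 dpi slice 2. In Col1a1-rich tissue Tapbp ran from -0.53 to 0.0032 and Psmb9 from -0.081 to 0.12 with a slice left out, Psmb9 became 0.053 at 2 Col1a1 UMIs per 10000 and 0.020 with deleter slices added, and Nlrc5 0.14 with deleter slices added. In far tissue H2-Q7 ran from -0.12 to 2.27 and Psmb9 from -0.17 to 1.15, both lowest without 7 dpi slice 1. At 2 Col1a1 UMIs per 10000, 4 of the 10 genes were too low in far tissue to be tested between times.

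At 10 Col1a1 UMIs per 10000 the summed level in Col1a1-rich spots became 13.7 at 2 dpi and a mean of 49.9 at 21 dpi, and in far spots 5.92 at 2 dpi and a mean of 5.39 in the deleter slices. Leaving out spots under 1000 UMIs moved no level or subunit ratio beyond the spread between slices or, at rest and 2 dpi, its counting interval. With 2 slices a group and few UMIs of Nlrc5, H2-Q7, Tap1 and Tap2 in far spots, small differences between times were not detectable at this depth. Slices at different times came from different mice, so no pairing between times was possible. Comparisons between zones were paired within slices.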
